A study of Mus musculus with 18 samples.

Results

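The genes of MHC class II antigen presentation were examined here: H2-Aa, H2-Ab1, H2-Eb1, H2-DMa, H2-DMb1, Cd74 and Ciita, taken by their symbols from the gene count table, 7 of its 36757 genes. Their read counts were followed across 18 RNA sequencing libraries of C57BL/6 mice, 12 of colorectal tissue and 6 of organoids, in 6 groups of 3. Colitis tissue came from a chronic model, in which mice aged 6 to 8 weeks drank 2% (w/v) DSS for 7 days, then water for 14 days, in repeated cycles, and were killed 4 weeks after the last of them. Tissue of colitis-associated cancer (CAC) came from mice of the same age that were first injected with AOM at 10 mg/kg and then taken through DSS cycles. Organoids were grown in matrigel from tumor-bearing intestinal pieces of the CAC model. Each of these was sequenced in mice labelled wild type (RNF138 fl/fl) and in mice labelled RNF138-/-, and neither the driver of the deletion nor the deleted exons are given in the sources used here. Nothing in the labels says that the 3 libraries of a group are separate animals or cultures, so p-values measure the spread between these libraries, which may be technical.

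MHC class II molecules are pairs of an alpha and a beta chain that display peptides from the endocytic pathway to CD4+ T cells. H2-Aa and H2-Ab1 encode the alpha and beta chains of I-A, and H2-Eb1 the beta chain of I-E, whose alpha chain gene is a pseudogene in this strain (H2-Ea-ps). The invariant chain Cd74 escorts the pair and blocks its groove, the H2-DM molecule (H2-DMa with H2-DMb1 or H2-DMb2) exchanges the remaining invariant chain fragment for peptide, and Ciita is the coactivator on which transcription of the class II genes depends. In the colon these genes are best known in dendritic cells, macrophages and B cells, and in epithelium under interferon-gamma.

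In mm10, 5 of the 7 genes lie on chromosome 17: H2-DMa (34119541 to 34139101, plus strand), H2-DMb1 (34153072 to 34160230, plus), H2-Ab1 (34257689 to 34269419, plus), H2-Aa (34282744 to 34287823, minus) and H2-Eb1 (34305867 to 34316674, plus). Ciita lies on chromosome 16 (10480059 to 10528418, plus), and the position of Cd74 is given with its values. The use of strand in counting is not stated, so reads over a gene on the opposite strand cannot be told apart. H2-DMa overlaps Brd2 by 3094 bases and Ciita overlaps Dexi by 25888 bases, both on opposite strands. H2-DMb1 shares 22.7% of the 50-base windows of its transcripts with its neighbour H2-DMb2, so the split of reads between these paralogs is uncertain.

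Class II promoters carry an X2 and a Y element in fixed order, to which CREB-type and NF-Y factors bind. RefSeq promoters (GRCm38.p6) were at hand for H2-Aa, H2-Eb1, H2-DMa and H2-DMb1. The letters searched were TGATGATG or TGACGTCA for X2 and TGATTGG for Y, on both strands of the 250 bases before the start site, and they were chosen after the sequences were seen. H2-Aa and H2-Eb1 are printed because their reads almost disappeared in the organoids while both promoters hold the pair. The capitals mark the X2 and then the Y letters, on the gene's strand, at chr17:34287847-34287927 (minus) for H2-Aa and chr17:34305751-34305832 (plus) for H2-Eb1.
H2-Aa: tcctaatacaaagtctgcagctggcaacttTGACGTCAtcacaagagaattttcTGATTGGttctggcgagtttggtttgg
H2-Eb1: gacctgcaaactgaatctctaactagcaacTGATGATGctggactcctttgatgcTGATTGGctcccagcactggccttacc
Between X2 and Y lie 16 bases in H2-Aa and 17 in H2-Eb1. The RefSeq promoter of H2-DMb1 holds the same X2 letters as H2-Eb1, at 89 bases before the RefSeq start, followed by the Y letters at 63. That stretch (chr17:34153072-34153154) lies inside H2-DMb1 as placed above, which begins at 34153072, and not before it. Neither entry of H2-DMa holds X2 or Y letters in the 250 bases searched. Over all 32851 promoters in the table, 7.23% hold the Y letters, 2.77% either X2 and 0.201% both. These matches are a description of letters and not of bound sites.

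Total counts were between 11514716 and 24390082 per library. Rnf138 was not called lower in any group labelled RNF138-/-: it was at 15.6 to 25.1 CPM (read counts scaled to each library's TMM-normalized size) in wild type and 17.97 to 19.4 CPM in colitis tissue labelled RNF138-/-, at 21.5 to 27.5 and 39.6 to 45.7 CPM in CAC tissue, and at 37.7 to 55.6 and 42.7 to 50.2 CPM in organoids. Since the deleted part is not known here, a count over the whole gene may miss it, and genotypes are given as labelled throughout. Xist was at 390.3 to 464 CPM in the organoids labelled wild type and at most 0.584 CPM in the other 15 libraries, and the Y-linked genes Ddx3y, Eif2s3y, Kdm5d and Uty had 0 reads in those 3 organoid libraries, so that sex and genotype cannot be told apart in the organoids. The label of cultured epithelium was checked against markers. Epcam was at 826 to 1622 CPM in organoids and 1189 to 2176 CPM in tissue. Of the 9 epithelial markers, 3 were called lower in organoids than in tissue (log2 fold changes of -3.71 for Cdx2, -1.87 for Vil1 and -1.65 for Krt20), 1 was called higher (Lgr5, 1.10) and 5 were not called. The fibroblast collagen Col1a1 was at 3252 to 16038 CPM in organoids against 64.9 to 274 CPM in tissue, and all 6 fibroblast markers were higher in the organoids, so the cultures were not of epithelium alone.

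All 7 genes were measured in every tissue library. The reads counted on them made up 0.0585% to 0.154% of all counts in tissue and 0.00262% to 0.00491% in organoids. Per kilobase of the longest principal transcript, the mean level over the 12 tissue libraries was highest for Cd74 at 211 ± 67.3 CPM per kb (SD), followed by H2-Ab1 at 197 ± 128, H2-Aa at 185 ± 59.0, H2-Eb1 at 115 ± 48.2, H2-DMb1 at 14.4 ± 5.21, H2-DMa at 10.4 ± 3.95 and Ciita at 1.83 ± 0.681. Over these pooled libraries, whose spread includes the differences between groups, Cd74, H2-Ab1 and H2-Aa lay within their SD, as did H2-DMb1 and H2-DMa, while the chains and the invariant chain stood well above the H2-DM genes. The order at the top differed between groups and between colitis libraries. In both colitis groups H2-Ab1 had the highest mean, within the spread. It was at 280.4 CPM per kb in wild type and 311 in libraries labelled RNF138-/-, against 264 and 255 for Cd74. This came from libraries 1 and 2 of each group. In library 3, H2-Ab1 was below Cd74, at 237 against 377 CPM in wild type and 162 against 216 CPM in that labelled RNF138-/-. In both CAC groups Cd74 was the highest, at 181 and 143 CPM per kb, and H2-Ab1 came after H2-Aa, at 110.3 and 86.0, below Cd74 by more than the SD of either gene. Over the 6 organoid libraries the order was another. H2-Ab1 led at 17.7 ± 7.34 CPM per kb, followed within its spread by H2-DMb1 at 13.4 ± 3.91, and then came H2-DMa at 2.22 ± 0.589, Cd74 at 1.69 ± 0.737, H2-Eb1 at 0.481 ± 0.254, and H2-Aa and Ciita at 0.0210 ± 0.0326 and 0.0176 ± 0.0193.

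H2-Aa, the I-A alpha chain, was at 252, 213 and 272 CPM in wild-type colitis tissue and at 282, 312 and 228 CPM in colitis tissue labelled RNF138-/-. In CAC tissue it was at 247, 148 and 172 CPM in wild type and at 132, 109 and 144 CPM in libraries labelled RNF138-/-. The organoids held 0, 0 and 1 reads in wild type and 0, 0 and 1 in those labelled RNF138-/-. Every tissue library thus lay far above every organoid library, and the CAC libraries labelled RNF138-/- lay below all others of tissue.

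H2-Ab1, the I-A beta chain, was at 419, 363 and 237 CPM in wild-type colitis tissue and at 488, 479.7 and 162 CPM in colitis tissue labelled RNF138-/-. It was at 169, 124 and 107 CPM in wild-type CAC tissue and at 105, 91.5 and 116 CPM in that labelled RNF138-/-. In the organoids it was at 28.1, 16.4 and 6.54 CPM in wild type and at 20.8, 30.6 and 26.03 CPM in those labelled RNF138-/-. The partner of the nearly absent H2-Aa was therefore counted in all 6 organoid libraries, with 97 to 578 reads each. Libraries 1 and 2 of both colitis groups were the highest.

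H2-Eb1, the I-E beta chain, was at 266, 240.4 and 229.6 CPM in wild-type colitis tissue and at 314, 298 and 192 CPM in colitis tissue labelled RNF138-/-. In CAC tissue it was at 219, 123 and 119 CPM in wild type and at 110.3, 85.4 and 109 CPM in libraries labelled RNF138-/-. In organoids it was at 1.09, 1.36 and 0.337 CPM in wild type and at 0.351, 0.635 and 1.04 CPM in those labelled RNF138-/-. The organoid genotypes overlapped, and both lay under all tissue.

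Cd74, the invariant chain, lies on chromosome 18 (60803848 to 60812652, plus strand, mm10). It was at 399, 341 and 377 CPM in wild-type colitis tissue and at 452, 412 and 216 CPM in colitis tissue labelled RNF138-/-. It was at 291, 266 and 209 CPM in wild-type CAC tissue and at 202, 185 and 219 CPM in that labelled RNF138-/-. In organoids it was at 2.36, 3.91 and 3.37 CPM in wild type and at 1.68, 1.48 and 1.49 CPM in those labelled RNF138-/-, without overlap between them.

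H2-DMa, the alpha chain of the peptide exchange molecule, was at 22.9, 21.7 and 21.6 CPM in wild-type colitis tissue and at 25.1, 27.4 and 16.0 CPM in colitis tissue labelled RNF138-/-. In CAC tissue it was at 18.4, 13.7 and 11.7 CPM in wild type and at 7.97, 7.89 and 13.2 CPM in libraries labelled RNF138-/-. In organoids it was at 3.86, 5.10 and 4.52 CPM in wild type and at 2.81, 2.80 and 2.98 CPM in those labelled RNF138-/-. As for Cd74, all 3 organoid libraries labelled RNF138-/- lay below all 3 of wild type.

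H2-DMb1, the beta chain of the same molecule, was at 30.1, 26.9 and 27.3 CPM in wild-type colitis tissue and at 26.9, 25.2 and 16.3 CPM in colitis tissue labelled RNF138-/-. It was at 18.4, 14.8 and 12.4 CPM in wild-type CAC tissue and at 9.72, 10.4 and 23.6 CPM in that labelled RNF138-/-. In organoids it was at 20.3, 13.8 and 11.3 CPM in wild type and at 19.4, 26.3 and 22.2 CPM in those labelled RNF138-/-, in the range of the tissue.

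Ciita, the coactivator, was at 16.9, 12.7 and 12.1 CPM in wild-type colitis tissue and at 16.8, 11.02 and 10.6 CPM in colitis tissue labelled RNF138-/-. It was at 14.1, 9.77 and 6.72 CPM in wild-type CAC tissue and at 4.36, 4.93 and 11.9 CPM in that labelled RNF138-/-. The organoids held 5, 0 and 3 Ciita reads in wild type and 1, 0 and 1 in those labelled RNF138-/-. Within the CAC tissue labelled RNF138-/-, library 3 was the highest of the group for 6 of the 7 genes, H2-Eb1 being the exception.

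**Figure D1:**
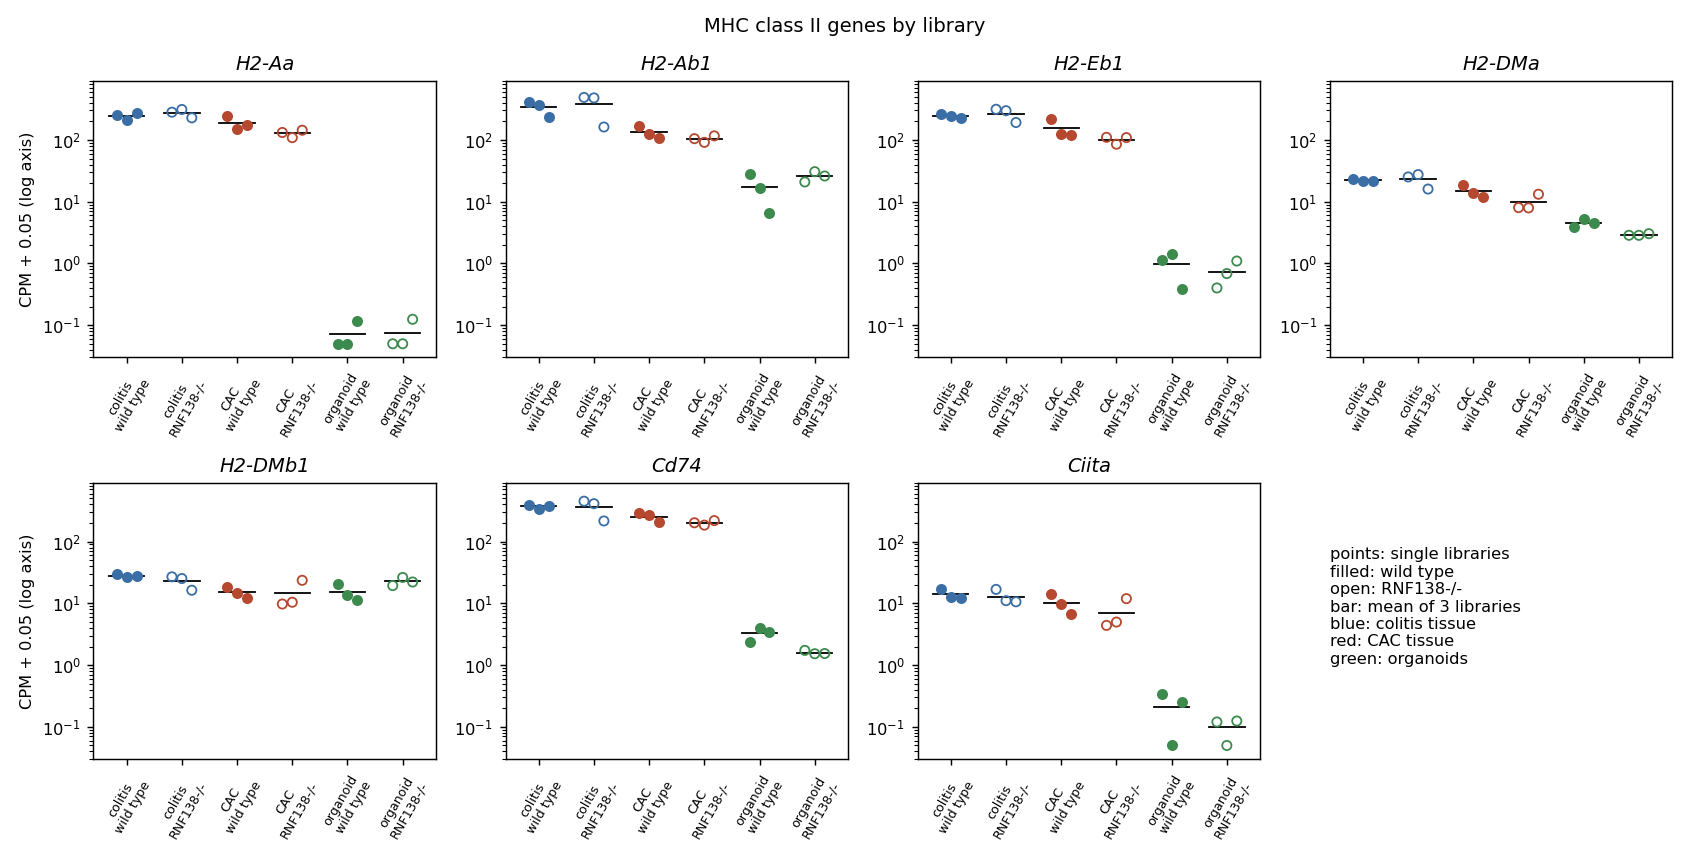
Level of each of the 7 class II genes in the 18 libraries, as CPM with 0.05 added, on a log axis; points are libraries, bars are means of 3 (blue colitis, red CAC, green organoids, filled wild type, open labelled RNF138-/-). In 6 of the 7 panels every organoid library sits under every tissue library, and in the panel of H2-DMb1 the organoids at 11.3 to 26.3 CPM lie within the tissue range of 9.72 to 30.1 CPM.

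To ask how class II expression in cultured organoids compared with that in tissue, organoids were compared with all colon tissue in a fit of all 18 libraries (edgeR quasi-likelihood test, Benjamini-Hochberg adjustment over 19390 genes; genes with an adjusted p under 0.05 that changed 2-fold or more were called). Of the 7 class II genes, 6 were lower in organoids and 1, H2-DMb1, was not called. Of all genes tested, 26.1% were called lower and 18.1% higher. The median log2 fold change of the 7 genes was -6.79, against -0.12 over all genes. Organoids share neither cell make-up nor culture with tissue, and in bulk RNA fewer cells of a type and less RNA per cell cannot be told apart.

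The I-A alpha chain H2-Aa had 44406 reads in tissue and 2 in organoids, a ratio of 9278 relative to the TMM-normalized library sizes, with an exact 95% interval of 2568 to 76618 for counting error. H2-Eb1 had a log2 fold change of -7.82, with an SE of 0.30 (edgeR adjusted p = 5.12e-12), Cd74 one of -7.01 ± 0.21 (± is the SE from here on, edgeR adjusted p = 4.69e-13) and Ciita one of -6.79 ± 0.47 (edgeR adjusted p = 2.44e-09). H2-Ab1 was at -3.29 ± 0.31 (edgeR adjusted p = 9.50e-08), and H2-DMa at -2.19 ± 0.17 (edgeR adjusted p = 9.98e-09). H2-DMb1 had a log2 difference of -0.07 ± 0.19 (edgeR adjusted p = 0.761). Its sign turned in 3 of the alternatives run, among them a fit against CAC tissue alone. By an exact permutation test of each gene over 6 against 12 libraries, the 6 called genes each had p = 0.000108 (two-sided, the smallest that these groups can give) and H2-DMb1 had p = 0.836.

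The same 6 genes were called when organoids were set against tissue of CAC, the model they were grown from, in either genotype as labelled. In wild type the background of genes called lower was 26.8%, and the log2 fold changes of the members other than H2-Aa were -7.37 ± 0.43 for H2-Eb1, -6.32 ± 0.29 for Cd74, -5.81 ± 0.62 for Ciita, -2.97 ± 0.46 for H2-Ab1 and -1.70 ± 0.26 for H2-DMa. In libraries labelled RNF138-/- the background was 26.5%, and the same genes were at -7.23 ± 0.43, -7.02 ± 0.31, -7.12 ± 0.74, -2.01 ± 0.44 and -1.75 ± 0.26. H2-DMb1 was at -0.01 ± 0.31 in wild type and 0.63 ± 0.31 in those labelled RNF138-/- (edgeR adjusted p = 0.986 and 0.0901). Without CAC library 3 labelled RNF138-/- the latter was 1.16 (edgeR adjusted p = 0.00271), and H2-DMb1 was then called higher in organoids. Wild-type organoids had no Y-linked reads while the wild-type CAC tissue had them, so the first of these comparisons also crosses sexes, and the second does not. Both share their organoid and CAC libraries with the comparison over all tissue.

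The make-up of the class II reads restates these changes within each library and is given as a description. Within a library, the ratio of H2-DMb1 to H2-DMa counts was 0.919 to 1.79 in the 12 tissue libraries and 2.51 to 9.38 in the 6 organoid libraries. H2-DMb1 took 1.61% to 3.71% of the class II reads in tissue and 34.0% to 43.0% in organoids (40.0% ± 3.88 SD against 2.11% ± 0.549), a share that was higher because the other 6 genes were lower. H2-Ab1 took 16.8% to 30.7% in tissue and 24.8% to 50.2% in organoids, with 1 organoid library in the tissue range, although its level was 9.79-fold lower there. Together these 2 genes made up 67.8% to 92.0% of the class II reads of an organoid library.

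**Figure D2:**
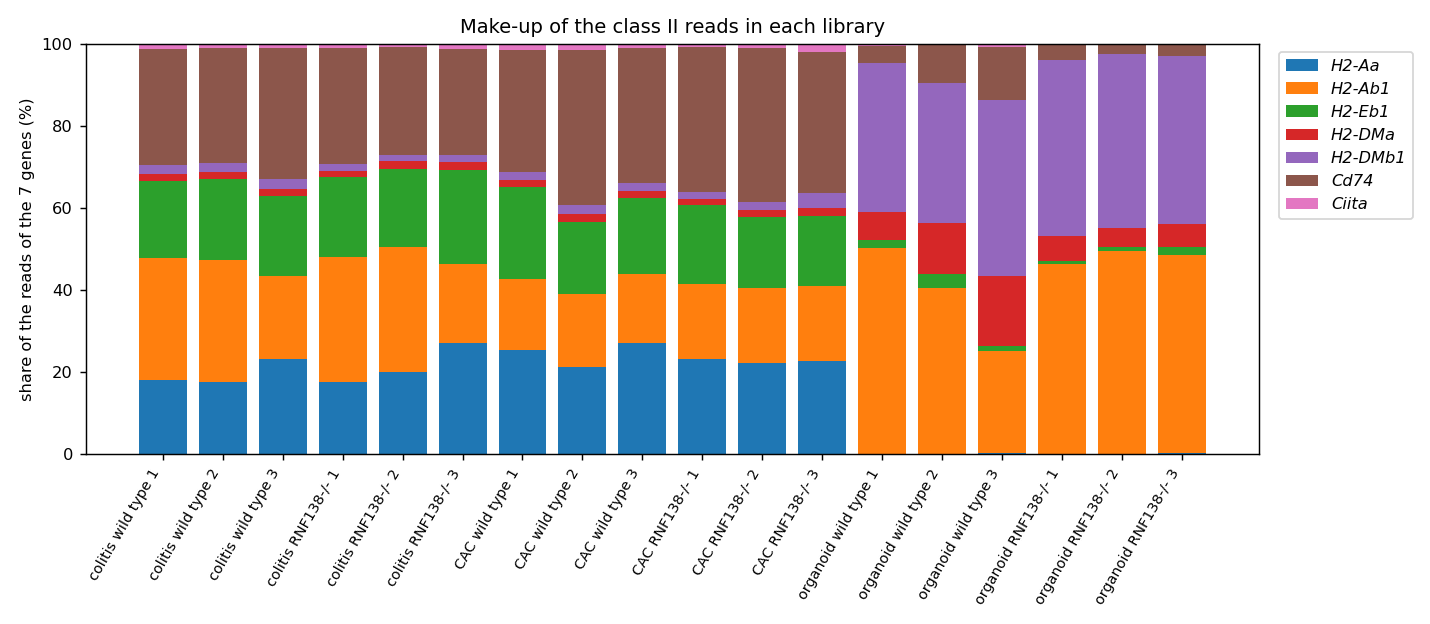
Share of the reads counted on the 7 class II genes that fell on each gene (y axis, percent), for each of the 18 libraries (x axis). H2-DMb1 makes up 34.0% to 43.0% of these reads in the 6 organoid libraries and at most 3.71% in tissue, where H2-Aa, H2-Ab1, H2-Eb1 and Cd74 make up most of the bar.

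Most markers of the cells that present antigen were lower in organoids, and so were those of T cells and endothelium. The summed level of 7 leukocyte markers was 173 to 307 CPM in tissue and 11.6 to 80.0 CPM in organoids, with 6 called lower and Tyrobp at 0 in the 3 wild-type organoid libraries. That of 10 macrophage and monocyte markers was 467 to 1008 CPM in tissue and 26.9 to 164 CPM in organoids, with 9 called lower. That of 9 B cell markers was 6.33 to 125 CPM against 0.448 to 1.96 CPM, with 8 called lower. That of 9 dendritic cell markers was 30.7 to 54.4 CPM against 10.7 to 23.6 CPM, with 6 called lower, Cd209a at 0 in every organoid library, and 1 higher (Zbtb46, at 5.80 to 14.6 CPM in organoids). The common leukocyte antigen Ptprc was at 0.0576 to 1.12 CPM in organoids and 25.8 to 78.8 CPM in tissue. The decrease was not limited to antigen-presenting cells. The 8 T cell markers summed to 14.7 to 58.2 CPM in tissue and 5.29 to 12.2 CPM in organoids. The 5 endothelial markers summed to 107 to 182 and 3.59 to 8.35 CPM, with Pecam1 at a log2 fold change of -7.32 ± 0.20. The part of these cells in the class II difference was not tested.

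The organoid libraries also differed in fibroblast markers. Of the 3 wild-type libraries, library 1 had the highest Col1a1 (9430 CPM, against 3252 and 3399), the highest H2-Ab1 and H2-DMb1, and the lowest Cd74. The organoids labelled RNF138-/- had more Col1a1 (13240, 16038 and 15868 CPM) and less Cd74 than all wild-type organoids, while their H2-Ab1 and H2-DMb1 overlapped those of wild type: library 1 of wild type was above libraries 1 and 3 labelled RNF138-/- for H2-Ab1, and above library 1 for H2-DMb1. The part of fibroblast content in these levels was not tested.

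The other genes of the pathway did not all follow. Of 13 further class II pathway genes, 12 were tested and 7 were lower and 3 higher in organoids than in tissue. The accessory class II genes were among the 7. H2-DMb2, the second H2-DM beta chain, had 1261 reads in tissue and 0 in organoids, at least 176-fold lower against a floor of 3 reads over the 6 libraries, on the same library sizes. H2-Ob, a chain of the H2-DM inhibitor H2-DO, had 1216 and 0 reads (at least 169-fold lower), and H2-Eb2 had 496 and 0 (at least 69.1-fold lower). H2-Oa, the partner of H2-Ob, had 174 and 1 reads, a ratio of 72.7 with an exact 95% interval of 12.9 to 2888. The organoid reads on H2-DMb1 were accompanied by no read on its paralog, and the sum of both had a log2 difference of -0.45 (edgeR adjusted p = 0.0413), under 2-fold. H2-Ea-ps had 5 reads in tissue in all.

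Proteases of the pathway went in both directions. Ctss, cathepsin S, which trims the invariant chain in antigen-presenting cells, fell from 136 to 391 CPM in tissue to 12.8 to 42.1 CPM in organoids (log2 fold change -3.46 ± 0.18, edgeR adjusted p = 1.49e-10). Ctsl, cathepsin L, rose from 120 to 249 CPM to 765 to 1241 CPM (2.48 ± 0.10, edgeR adjusted p = 5.12e-12), and the other called genes that rose were Lgmn (1.42 ± 0.10) and Ctsb (1.09 ± 0.10). The ubiquitin ligase gene March1, which acts on surface class II, was lower (-3.66 ± 0.35).

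Most factors that bind class II promoters were not called. Of 15 genes of promoter factors and the interferon-gamma input, 14 were tested, none was called higher and 3 were lower, and their median log2 fold change of -0.16 was near the -0.12 over all genes. Rfx5 was at 7.95 to 29.7 CPM in tissue and 14.8 to 22.3 CPM in organoids, and Rfxap at 14.1 to 25.3 and 19.4 to 25.03 CPM. Rfxank was lower by under 2-fold (-0.94 ± 0.12, edgeR adjusted p = 2.81e-06). Against wild-type CAC tissue Rfxank was called lower (-1.07) and Nfyb higher (1.22). Against CAC tissue labelled RNF138-/- neither was called (-0.73 and -0.43). Irf1, an interferon-induced transcription factor, was called lower (-1.82 ± 0.17), and so was Creb1 (-1.17 ± 0.11). Ifng itself had 27 reads in all tissue libraries and 1 in the organoids.

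The class I pathway presents peptides from the cytosol. Of its 13 listed genes, all tested, 9 were lower and none was higher in organoids than in tissue. Of all genes tested, 26.1% were lower. The median log2 fold change of the 13 genes was -1.40. Nlrc5, the class I counterpart of Ciita, had the lowest value, at -4.70 ± 0.41 (edgeR adjusted p = 3.78e-08), followed by the immunoproteasome subunits Psmb9 (-2.54 ± 0.22), Psmb8 (-2.46 ± 0.23) and Psmb10 (-2.32 ± 0.21). The heavy chain gene H2-K1 remained at 454 to 579 CPM in organoids, against 521 to 3257 CPM in tissue (-1.50 ± 0.19). Against CAC tissue alone the class I result differed by group. In wild type, H2-K1 (-1.20) and B2m (-1.50) were called lower. In libraries labelled RNF138-/- neither was called (-0.43 and -0.21), and Calr was called higher (1.26). Nlrc5 and these immunoproteasome subunits were called lower in both. Of 8 costimulation genes, 3 were lower and 3 higher: Cd86 was at 0 to 0.423 CPM in organoids and 3.35 to 7.19 CPM in tissue (-5.23 ± 0.36), while Cd80 was at 2.55 to 19.0 CPM and 0.557 to 2.66 CPM (2.98 ± 0.27).

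**Figure D3:**
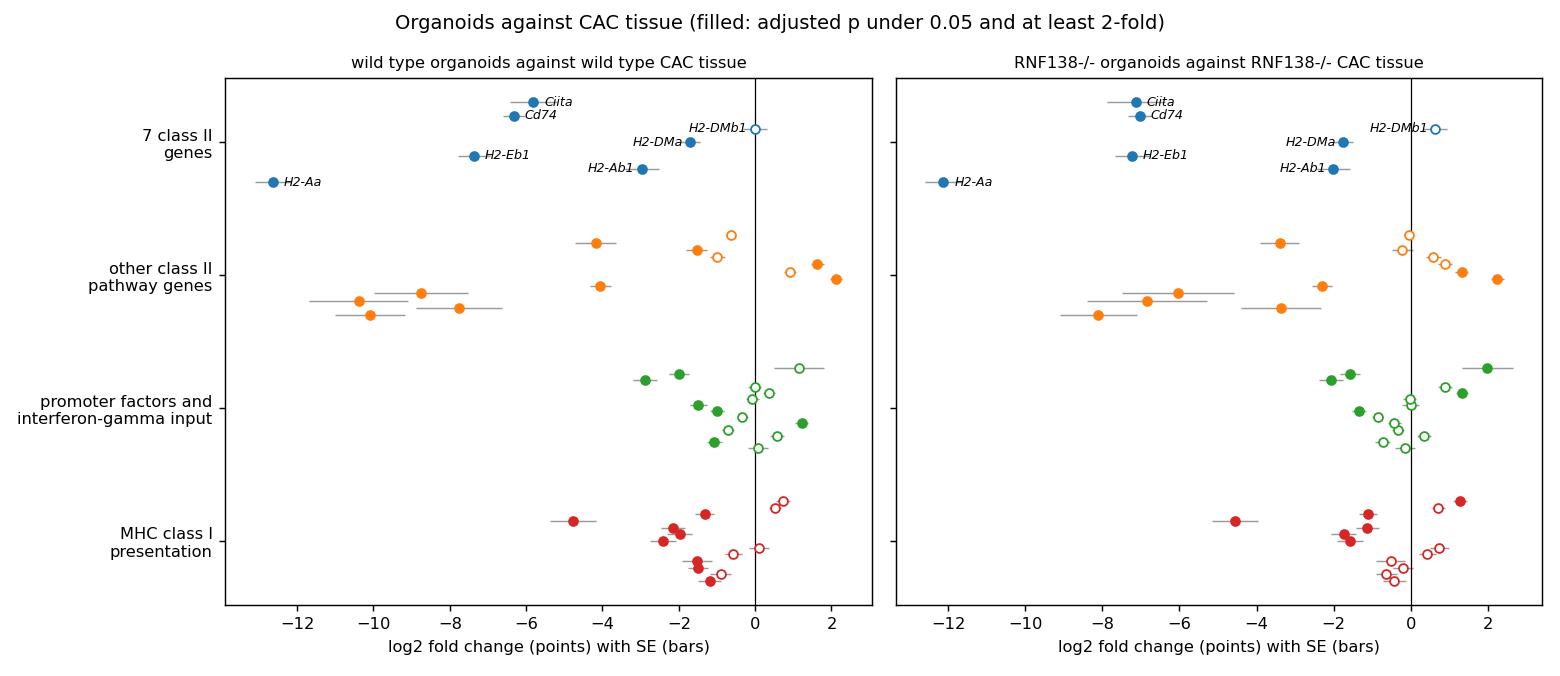
Log2 fold change of organoids against CAC tissue (x axis, bars SE) in wild type (left) and in libraries labelled RNF138-/- (right), for 4 gene lists (y axis); filled points passed an adjusted p of 0.05 and a 2-fold change. H2-Aa, H2-Eb1, Cd74 and Ciita lie at -5.81 or below in both panels, H2-Ab1 and H2-DMa between -2.97 and -1.70, and H2-DMb1 near 0 or above; fitted values of genes with under 4 organoid reads depend on the prior count of the fit.

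Within each model, libraries labelled RNF138-/- were compared with wild type in separate fits. In colitis tissue, 0 of the 7 class II genes were called by edgeR, 0 had an unadjusted p under 0.05, and DESeq2 called 0. Of all genes, 0.0902% were called in either direction. The log2 fold changes lay between -0.31 ± 0.22 for H2-DMb1 and 0.15 ± 0.19 for H2-Aa. Library 3 labelled RNF138-/- was the lowest of its group for each of the 7 genes, with Cd74 at 216 CPM against 412 and 452.

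In CAC tissue, 0 of the 7 genes were called by edgeR and 0 by DESeq2, and 2, H2-Aa and H2-Eb1, had an unadjusted p under 0.05. Of all genes, 5.37% were called in either direction. All 7 log2 fold changes lay below 0, with a median of -0.58 against 0.01 over all genes, although that of H2-DMb1 (-0.11 ± 0.38) was 0.14 without scaling between libraries. H2-Aa was at -0.61 ± 0.22 (edgeR adjusted p = 0.114), H2-DMa at -0.65 ± 0.28, H2-Eb1 at -0.64 ± 0.26, Ciita at -0.58 ± 0.46, H2-Ab1 at -0.41 ± 0.20 and Cd74 at -0.39 ± 0.17. These values depended on single libraries and on the settings. Without library 3 labelled RNF138-/-, Ciita was at -1.16, H2-DMa at -0.91 and H2-DMb1 at -0.63. Without wild-type library 1, Ciita was at -0.29, H2-Eb1 at -0.31, H2-Aa at -0.39 and H2-Ab1 at -0.22. In both cases 0 class II genes were called by edgeR. Over all alternatives run, Ciita was at -1.46 to -0.29, H2-DMa at -1.14 to -0.39 and H2-DMb1 at -0.90 to 0.14. The groups did not overlap for H2-Aa and H2-Eb1, for which an exact permutation test gave p = 0.1, the smallest possible with 3 against 3. Differences of this size did not pass the adjustment with 3 libraries per group. With a covariate of Y-linked genes in the fit 0 of all genes were called. All CAC libraries held Y-linked reads and hardly any Xist, so this covariate does not separate sexes and its result says nothing about sex.

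Other cell markers differed in the same comparison. B cell markers summed to 6.33 to 11.2 CPM in CAC tissue labelled RNF138-/-, and 6 of 9 were called lower. Of the plasma cell markers 4 of 5, and of the smooth muscle markers 5 of 5, were called lower, while 0 of 10 macrophage and monocyte markers and 0 of 8 dendritic cell markers tested were called. H2-DMb2 was called (log2 fold change -2.04 ± 0.44, edgeR adjusted p = 0.0476), at 1.94 to 2.02 CPM against 4.23 to 13.03 CPM. The part of these cells in the class II values was not tested.

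In organoids, 5 of the 7 genes had enough reads to be tested and 1, Cd74, was lower in those labelled RNF138-/- (log2 fold change -1.08 ± 0.30, edgeR adjusted p = 0.0252). Of all genes, 7.04% were called lower and 7.94% higher. The call rests on 140 Cd74 reads in wild type and 72 in those labelled RNF138-/-, and it was lost on leaving out any library except wild-type library 1 (edgeR adjusted p between 0.0530 and 0.0962), and also with the replicate number as a block (adjusted p = 0.0630). H2-DMa had a log2 difference of -0.68 ± 0.24 (edgeR adjusted p = 0.0527), H2-Eb1 -0.49 ± 0.58, H2-Ab1 0.56 ± 0.43 and H2-DMb1 0.54 ± 0.22 (edgeR adjusted p = 0.0929). Without wild-type library 1, H2-Ab1 was at 1.15 and was called higher in those labelled RNF138-/- (edgeR adjusted p = 0.0314). The 7 leukocyte markers summed to 65.5 to 80.0 CPM in organoids labelled RNF138-/- and 11.6 to 24.1 CPM in wild type. The 10 macrophage and monocyte markers summed to 110 to 164 and 26.9 to 38.1 CPM in the same order. Of the markers with enough reads to be tested, 5 of 5 and 6 of 8 were called higher in those labelled RNF138-/-. Some, such as Tyrobp and C1qc, had enough reads in that group alone, so these counts are partly set by the filter on low counts. Lyz2 was at 72.3 to 111 CPM against 4.07 to 7.55 CPM. C1qc had no reads in wild type and 1.00 to 2.59 CPM in those labelled RNF138-/-. Cd74 was thus lower in the organoids in which these markers were higher, and sex cannot be told apart from genotype here.

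The genotype difference was also compared between models. In the contrast of CAC minus colitis, 0 of the 7 genes were called by edgeR and 0 by DESeq2, against 11.9% of all genes in either direction, and 1 (H2-Aa, log2 difference -0.71 ± 0.33) had an unadjusted p under 0.05. In organoids minus CAC, 0 were called by edgeR and 0 by DESeq2, 0 had an unadjusted p under 0.05, and 18.9% of all genes were called. The difference was -0.70 ± 0.36 for Cd74 (edgeR adjusted p = 0.173) and 0.96 ± 0.61 for H2-Ab1 (edgeR adjusted p = 0.271).

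Class II levels in CAC tissue were then compared with those in colitis tissue. In wild type 1 gene, H2-Ab1, was lower in CAC (log2 fold change -1.35 ± 0.43, edgeR adjusted p = 0.0376), while 3.81% of all genes were called lower and 9.78% higher. The call was lost on leaving out wild-type colitis library 1 or 2, or CAC library 2 or 3 (adjusted p between 0.0785 and 0.115). The other 6 genes were between -0.88 ± 0.31 (H2-DMb1) and -0.38 ± 0.23 (H2-Aa) and were not called. In libraries labelled RNF138-/-, 4 genes were lower in CAC, against 19.6% of all genes: H2-Ab1 (-1.85 ± 0.44), H2-Eb1 (-1.40 ± 0.31), H2-DMa (-1.24 ± 0.25) and H2-Aa (-1.10 ± 0.23), with edgeR adjusted p between 0.000590 and 0.00214. Without scaling between libraries 2 genes were called. Cd74 was at -0.83 ± 0.23 (edgeR adjusted p = 0.00601), under 2-fold. The difference between these genotypes is the contrast above, in which no class II gene was called.

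Of the libraries behind this comparison, 4 stood apart. Over genes, the relative level correlated with the GC content of the transcript at r = 0.169 to 0.315 in libraries 1 and 2 of both colitis groups, and at r = -0.239 to -0.122 in the other 8 tissue libraries. The ratio of H2-Ab1 to H2-Aa counts split the same libraries, at 1.54 to 1.73 in those 4 and 0.625 to 0.871 in the other 8. These transcripts of the genes have a GC content of 57.3% and 46.5%. H2-Ab1 was at 363 to 488 CPM in those 4 libraries and at 162 and 237 CPM in the third library of each colitis group. Without the 4 libraries, which leaves 1 colitis library per genotype whose spread is taken from the other groups, 0 class II genes were called in wild type and 0 in libraries labelled RNF138-/- by edgeR. H2-Ab1 was then at -0.82 ± 0.51 and -0.67 ± 0.51 (edgeR adjusted p = 0.414 and 0.335), and Cd74 in libraries labelled RNF138-/- at -0.14 ± 0.23. H2-DMb1 in libraries labelled RNF138-/- went from -0.64 to -0.20 and Ciita in wild type from -0.44 to -0.24. In libraries labelled RNF138-/-, H2-DMa also went from -1.24 to -0.76, H2-Eb1 from -1.40 to -0.95 and H2-Aa from -1.10 to -0.87. In wild type, Cd74 went from -0.54 to -0.56, H2-DMb1 from -0.88 to -0.84 and H2-Aa from -0.38 to -0.52. All 7 log2 values stayed below 0 in both genotypes as labelled. With a correction for GC content in the fit, 1 and 4 genes were called as before.

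**Figure D4:**
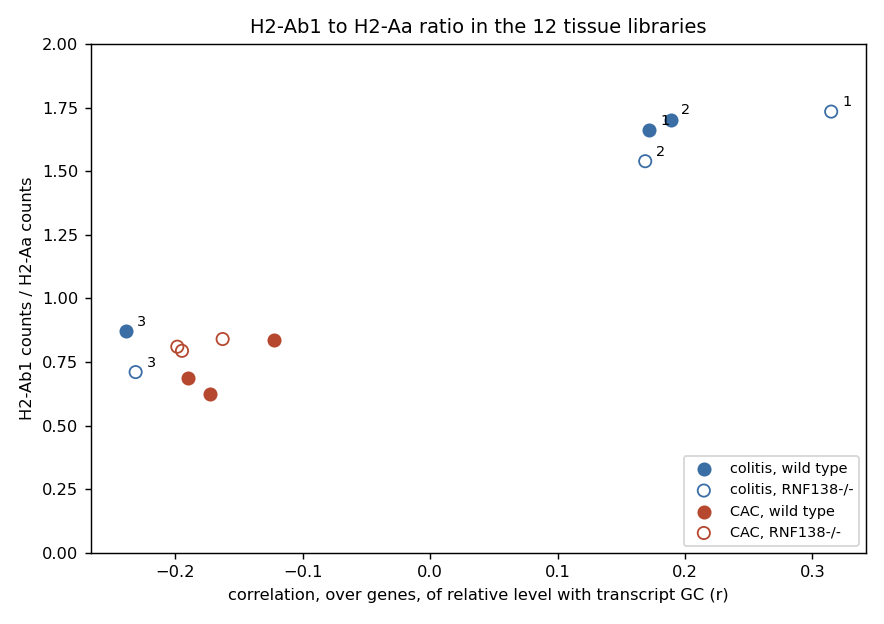
Ratio of H2-Ab1 to H2-Aa counts (y axis) against the correlation over genes of relative level with transcript GC content (x axis, r), for the 12 tissue libraries; digits are colitis library numbers. The 4 colitis libraries numbered 1 and 2 sit at ratios of 1.54 to 1.73, apart from the other 8 at 0.625 to 0.871.

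Marker lists also moved between these tissues. In wild type, 5 of 9 B cell markers were higher in CAC, where H2-Ab1 was lower, and the macrophage gene Adgre1 and the dendritic cell gene Clec10a were lower. Of the 12 tested genes of the further class II pathway, 1, H2-Oa, was called there, and it was higher in CAC (log2 fold change 1.74, edgeR adjusted p = 0.0479). In libraries labelled RNF138-/-, 9 of 9 B cell markers, 4 of 9 dendritic cell markers, 4 of 5 plasma cell markers and 5 of 5 smooth muscle markers were lower in CAC, together with 6 of 12 tested genes of the further class II pathway and 7 of 13 of class I. Of the 10 macrophage and monocyte markers, C1qa (log2 fold change -1.29) and Mertk (-1.54) were lower there and Cd68 (1.23) was higher. Their part in the class II values was not tested.

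**Figure D5:**
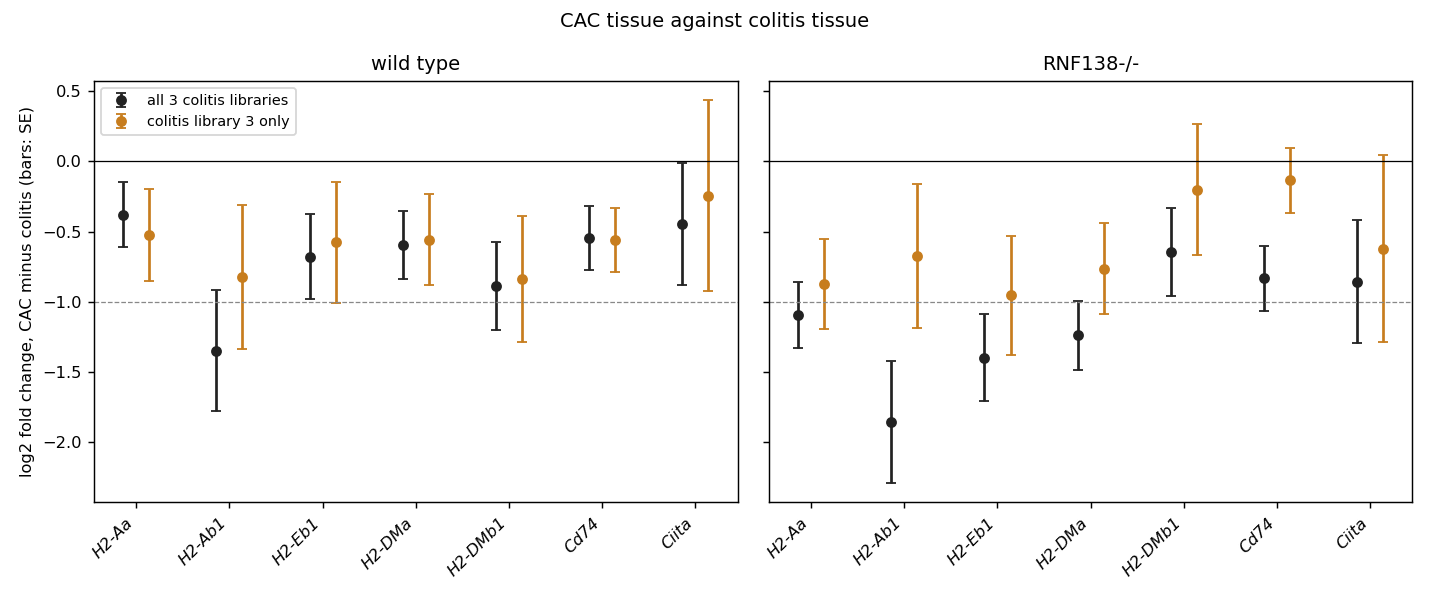
Log2 fold change of CAC against colitis tissue (y axis, bars SE) for the 7 class II genes in wild type (left) and in libraries labelled RNF138-/- (right), with all libraries (black) and without colitis libraries 1 and 2 (orange); the dashed line is a 2-fold decrease. H2-Ab1 moves from -1.35 to -0.82 in wild type and from -1.85 to -0.67 in libraries labelled RNF138-/-.

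Genes were also ranked by how alike their level was. Those whose level over the 12 tissue libraries was most like the mean log2 CPM of the 7 class II genes, among 11816 protein-coding genes with a mean of at least 5 CPM, were Rab29 (r = 0.981), Derl1, Pla2g10, Cygb, Cuta, A430005L14Rik, Elof1, Tmem159, Pycrl and Upp2 (r = 0.934). Colitis libraries 1 and 2 were above all other tissue libraries in 9 of these 10 genes, and in 3 of the 7 class II genes, and these points share the library split described above. Over the 6 organoid libraries, among 11258 genes, Arhgap26 (r = 0.988), Abcc5, Ptpn14, Rab29 and Ogfr (r = 0.966) were most like the mean. Rab29 was in both lists, at 10.8 to 17.4 CPM in tissue and 7.57 to 11.8 CPM in organoids.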

How the data were processed

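RNA was sequenced in 18 libraries, and the authors deposited raw read counts per gene, as whole numbers. Per the labels, mm10, STAR 2.6.1d, HTSeq 0.11.2 and DESeq2 are listed with no role given. The study's methods state mapping to mm10 and transcript assembly with Cufflinks on Gencode v.M8; which tool made the counts, and whether strand was used, is not given in the sources used here. A second deposited table holds log2 fold changes and p-values of the authors' own comparisons and was not used. The members, the gene lists and the tests were chosen with earlier results of these data known.

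Counts were fitted with edgeR 4.0.16 in R 4.3.3 (TMM, filterByExpr, quasi-likelihood test), with DESeq2 1.42.0 as an alternative. Genotypes were compared in separate fits of 6 libraries and all else in a fit of 18. Log2 CPM used a prior count of 2. Genes were placed with GENCODE M21 (36700 of 36757 matched). Floors are 3 counts over a group, and floors and 95% intervals cover counting error only. All members were named; from the other lists, counts and at most 4 called genes and markers; H2-K1, Rfx5, Rfxap, H2-DMb2, Zbtb46 and others beyond this rule were named after their values were seen. Replicates differed by more than sampling noise (chi-square per degree of freedom 7.44 to 144). On simulated data the fits recovered most of the changed genes. Values of a pair of list genes are not reported here.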

Additional observations from a re-analysis of the deposited data

How the results depend on the processing

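For organoids against tissue and against wild-type CAC tissue, 6 of the 7 genes were called under every alternative run, and against CAC tissue labelled RNF138-/- 6 to 7 were called when a library was left out, the added call being H2-DMb1, higher in organoids without CAC library 3 labelled RNF138-/-. Colitis and CAC tissue by genotype, and the contrast of CAC minus colitis, gave 0 calls under every alternative run. In organoids labelled RNF138-/- against wild type, 0 genes were called with the replicate block, against 1 without it, and 0 to 2 when a library was left out (2, Cd74 and H2-Ab1, without wild-type library 1). Deviations of same-numbered libraries correlated by -0.114 to 0.380, above 0.1 in 5 of 45 pairs, so the numbers were not taken to pair the samples, and the block left every other count of class II calls as it was.

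CAC against colitis gave 0 to 2 calls in wild type (2 without CAC library 1) and 3 to 6 in libraries labelled RNF138-/- when a library was left out. Without colitis libraries 1 and 2 it gave 0 and 0; this alternative and the GC correction were chosen after seeing the data. Without scaling between libraries, 2 genes were called in libraries labelled RNF138-/-, and 1 in organoids minus CAC (0 to 1 with a library left out, 1, H2-DMb1 at 1.19, without CAC library 3 labelled RNF138-/-). That setting moved the median of all genes from -0.22 to -0.84 in organoids against CAC tissue labelled RNF138-/- and from 0.04 to 0.35 in CAC against colitis labelled RNF138-/-. It moved the genes called higher and lower from 3515 and 5065 to 2702 and 6248 for organoids against tissue, from 3466 and 5138 to 2177 and 8143 for organoids against CAC tissue labelled RNF138-/-, from 1215 and 1077 to 936 and 1653 between organoid genotypes, from 3392 and 3804 to 4786 and 2933 for CAC against colitis labelled RNF138-/-, from 498 and 1816 to 844 and 1453 for CAC minus colitis, and from 2211 and 1462 to 1521 and 3434 for organoids minus CAC. In colitis tissue, 3 genes were called higher and 12 lower by edgeR, 205 and 138 by DESeq2, and 38 and 51 with the block. In CAC tissue, these were 97 and 857 by edgeR, 558 and 1905 by DESeq2, and 0 and 0 with a covariate of Y-linked genes. That covariate could not be fitted in organoids, where it is the same as genotype.

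Small log2 differences changed sign. H2-DMb1 in organoids was 0.31 against CAC tissue of both genotypes alone, with the colitis libraries dropped, which is another contrast. Against all tissue it was 0.01 without colitis libraries 1 and 2, and -0.20 to 0.05 with a library left out. Against wild-type CAC tissue it was -0.28 to 0.15. Between genotypes in colitis, H2-Ab1 was -0.07 and H2-DMa -0.02 with the Y-linked covariate, and H2-DMb1 was 0.01 when summed with H2-DMb2. With a library left out, the values there were -0.08 to 0.50 for H2-Ab1, -0.00 to 0.31 for H2-Eb1, -0.12 to 0.24 for H2-DMa, -0.24 to 0.20 for Cd74 and -0.36 to 0.04 for Ciita. Between genotypes in CAC, H2-DMb1 was 0.14 without scaling and -0.63 to 0.10 with a library left out. In CAC minus colitis, H2-Ab1 was 0.15 and Cd74 0.42 without colitis libraries 1 and 2, and H2-DMb1 was -0.49 when summed and -0.30 to 0.46 with a library left out. In organoids minus CAC, H2-Eb1 was -0.29 without scaling, H2-DMa was 0.00 with RLE and with DESeq2, and with a library left out H2-Aa was -1.48 to 2.57, H2-Eb1 -0.25 to 0.47 and H2-DMa -0.22 to 0.25. The cause of these changes was not tested. H2-Aa and Ciita in organoids rest on 0 to 5 reads per library, which limits any difference between organoid genotypes.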
